A study of Mus musculus with 27 samples.

Results

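The clustered histone genes are the mouse genes whose symbols start with Hist1h, Hist2h, Hist3h or Hist4h, and every such symbol in either table of RNA values was taken. This gave 68 genes of 24892 symbols: 6 for the linker histone H1, 18 for H2A, 19 for H2B, 12 for H3 and 13 for H4. Of them, 54 were Hist1 genes, 10 Hist2, 3 Hist3 and 1 Hist4. Hist1h2bq was listed only in the table of parental cells and Hist1h2br only in the table of shRNA cells, so each table held 67.

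Most of these genes are replication-dependent: they supply the histones that wrap newly copied DNA, and their mRNAs accumulate in S phase and are degraded when DNA synthesis stops. A pair each of H2A, H2B, H3 and H4 forms the core of a nucleosome, and H1 binds the linker DNA where it enters and leaves. Their mRNAs usually end in a conserved stem-loop instead of a poly(A) tail. The stem-loop-binding protein (Slbp) recognises that structure, and Npat drives transcription of the clusters from nuclear histone locus bodies.

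The data come from NMuMG cells, an established line of normal mouse mammary epithelium that undergoes an epithelial to mesenchymal transition (EMT) when given TGF-β. Parental cells were untreated (0 h) or given TGF-β at 1 to 5 ng/ml for 8 or 24 h, with 2 RNA-seq libraries at each time. Cells infected with an irrelevant shRNA (control) or with a lamin B1 shRNA (knockdown, KD) followed the same 3 time points, again with 2 libraries each, which makes 18 RNA libraries in all. Lamin B1 ChIP-seq, on chromatin prepared to favour euchromatin, and ATAC-seq, which marks accessible DNA, gave 1 peak list per time point in parental cells, and each ChIP library mixed parallel ChIPs, so neither assay has replicates. Parental, control and KD cells were all grown in medium with insulin. No source used here says whether an infected population was cloned. The deposited RNA values are FPKM, fragment counts scaled to transcript length and to the mapped total of the library, with 1 value per gene and library and no reads, and whether poly(A) RNA was selected is not given in the sources used here.

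Lmnb1, the target of the shRNA, was listed at 29.2 and 36.5 FPKM in control cells at 0 h, against 9.01 and 9.27 in KD cells. At 24 h, when control cells held 17.9 and 18.4, the KD libraries held 4.37 (replicate 1) and 7.52 (replicate 2). The lowest share of the FPKM held by the 10 highest genes was 11.4% in KD cells at 0 h, and the highest was 40.4% in control cells at 24 h. Among epithelial markers Krt8, Krt18, Krt19 and Cdh1 were high throughout, Epcam reached at most 3.15 FPKM, and Cldn3 and Cldn7 were at or near 0, so the labelled cell type rested on the keratins and E-cadherin. The summed FPKM of the fibroblast, endothelial and immune marker lists were at most 2.73, 1.66 and 2.03, against at least 4317 for the 7 epithelial genes. The 5 basal markers moved with treatment: their sum was 4.39 to 4.90 in control cells at 0 h and 27.7 to 27.8 at 8 h, and 1.86 to 1.93 and then 24.9 to 30.6 in KD cells, mostly Krt14. At 24 h it was 3.22 to 3.31 in control and 5.29 to 5.35 in KD cells, and the part of these changes in the histone results was not tested. In bulk RNA, fewer cells in S phase and less histone mRNA per cell cannot be told apart.

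The histone stem-loop itself was searched for in the mm9 genome, in the 100 bases after each stop codon. The pattern was 6 perfectly paired bases on each side of a 4-base loop that starts with TTT. The stem had to begin with GG, and so to end with CC. It was found in 58 of the 66 members with an annotated coding sequence (87.9%), against 63 of 22600 genes in all (0.279%). The 5 genes outside the clusters that held it, named after the search, were 1700014N06Rik, Cdc40, H2afx, Tal1 and Ttc14. Within that pattern only 6 versions of the 16 bases occurred. An example of each is shown because the versions in H4 genes differed from those in the other types. Capitals mark the 16-base stem-loop, written as DNA in the sense of the gene, with 5 bases on each side.
Hist1h1c: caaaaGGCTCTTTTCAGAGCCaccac
Hist1h2bl: tcaaaGGCTCTTTTAAGAGCCaccca
Hist2h2ac: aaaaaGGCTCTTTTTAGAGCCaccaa
Hist1h4h: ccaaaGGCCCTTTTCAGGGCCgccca
Hist1h4i: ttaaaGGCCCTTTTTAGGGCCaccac
Hist1h4j: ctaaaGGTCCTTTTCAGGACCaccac

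The version of Hist1h1c (chr13:23831381-23831396, plus strand) was shared by 36 members, none of them H4 genes, and that of Hist1h2bl (chr13:21807587-21807602, minus strand) by 9, again none of them H4. The version of Hist1h4h (chr13:23623327-23623342, plus strand) was in 8 genes, all H4. Those of Hist1h4i (chr13:22132835-22132850, minus strand) and Hist1h4j (chr13:21827306-21827321, plus strand) were in 2 H4 genes each, and that of Hist2h2ac (chr3:96024341-96024356, minus strand) in that gene alone. The stem-loops began 21 to 58 bases after the stop codon, with a median of 31. No match was found in the window of Hist1h2an, Hist1h2bp, Hist1h2bq, Hist1h2br, Hist1h3g, Hist1h4a, Hist2h2bb and Hist2h2be. The annotated exon reached the stem-loop in 42 of the 58 genes and stopped short of it in 16, among them Hist1h2bl and Hist1h2bn, whose annotated transcripts end at the stop codon, at 381 bases. In 22 of the 58 an annotated transcript ran over 50 bases past it. The median over genes of the mean FPKM was 0.338 for these 22 and 0.366 for the other 36.

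Promoters were compared in the 250 bases before the start site, from the RefSeq table on GRCm38.p6, where 61 of the 68 members were matched among 27025 promoters. CCAAT, searched on both strands as were all 5 motifs, was present in 50 of 61 (82.0%, against 34.5% of all promoters): in 6 of 6 H1, 17 of 17 H2A, 16 of 16 H2B, 8 of 10 H3 and 3 of 12 H4 genes. TATAAA was present in 29 (47.5%, against 12.97%). The octamer ATTTGCAT was in 13 (21.3%, against 1.61%), 7 of them H2A and 6 H2B genes, and TTTCGCGC, an E2F type site, was in 7 (11.5%, against 0.255%), 3 H2A and 4 H2B. AAACACA, the H1 box, was in 9 (14.8%, against 6.22%), of which 5 were H1 genes. Members that start back to back share part of these windows, so they were not independent. The 120 bases before the start are shown for 4 members whose RNA moved in different ways below. Capitals mark CCAAT, the octamer and the H1 box on either strand.
Hist1h1c: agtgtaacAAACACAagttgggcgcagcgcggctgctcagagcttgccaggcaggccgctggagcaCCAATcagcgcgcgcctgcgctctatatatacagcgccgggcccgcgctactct
Hist1h2bm: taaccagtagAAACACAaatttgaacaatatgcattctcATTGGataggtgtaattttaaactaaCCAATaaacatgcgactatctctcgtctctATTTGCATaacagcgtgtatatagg
Hist3h2a: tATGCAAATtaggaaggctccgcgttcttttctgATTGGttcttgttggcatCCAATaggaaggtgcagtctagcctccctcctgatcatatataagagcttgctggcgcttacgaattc
Hist1h4i: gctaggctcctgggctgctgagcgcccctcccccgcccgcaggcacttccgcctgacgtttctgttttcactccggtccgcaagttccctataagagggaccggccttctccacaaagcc

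These lie on GRCm38.p6 at chr13:23738687-23738806 (plus strand), chr13:21721924-21722043 (plus), chr11:58954565-58954684 (plus) and chr13:22041363-22041482 (minus), in that order. The Hist1h4i stretch, which held none of the 3 marked motifs, carried its only match to a searched motif, a TATAAA, further upstream. The peak lists are on another build, mm9, and the 2 sets of positions were not compared.

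The levels of most members were low. Over the 18 libraries the mean FPKM was under 1 for 48 of the 68 genes and at least 1 for 20, and 34 never reached 1 in any library. Only 12 were at 1 or above in every library. The 12 highest means belonged to Hist1h2bl (27.1), Hist1h2bc (25.5), Hist1h2bn (19.0), Hist1h1c (17.98), Hist1h2ai (16.5), Hist1h2bm (10.2), Hist3h2a (8.54), Hist1h4j (6.66), Hist1h4i (5.97), Hist1h4k (5.72), Hist1h2an (2.85) and Hist1h4m (2.60), so that 4 H2B genes stood among the first 6 and no H3 gene among the 12. This order pools 2 tables that were made separately: Hist1h2bl was first in parental and Hist1h2bc in shRNA cells, and in parental cells alone Hist1h2ak stood among the 12 in place of Hist1h4m. FPKM divides by transcript length, and the lengths the authors used are not given in the sources used here.

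**Figure D1:**
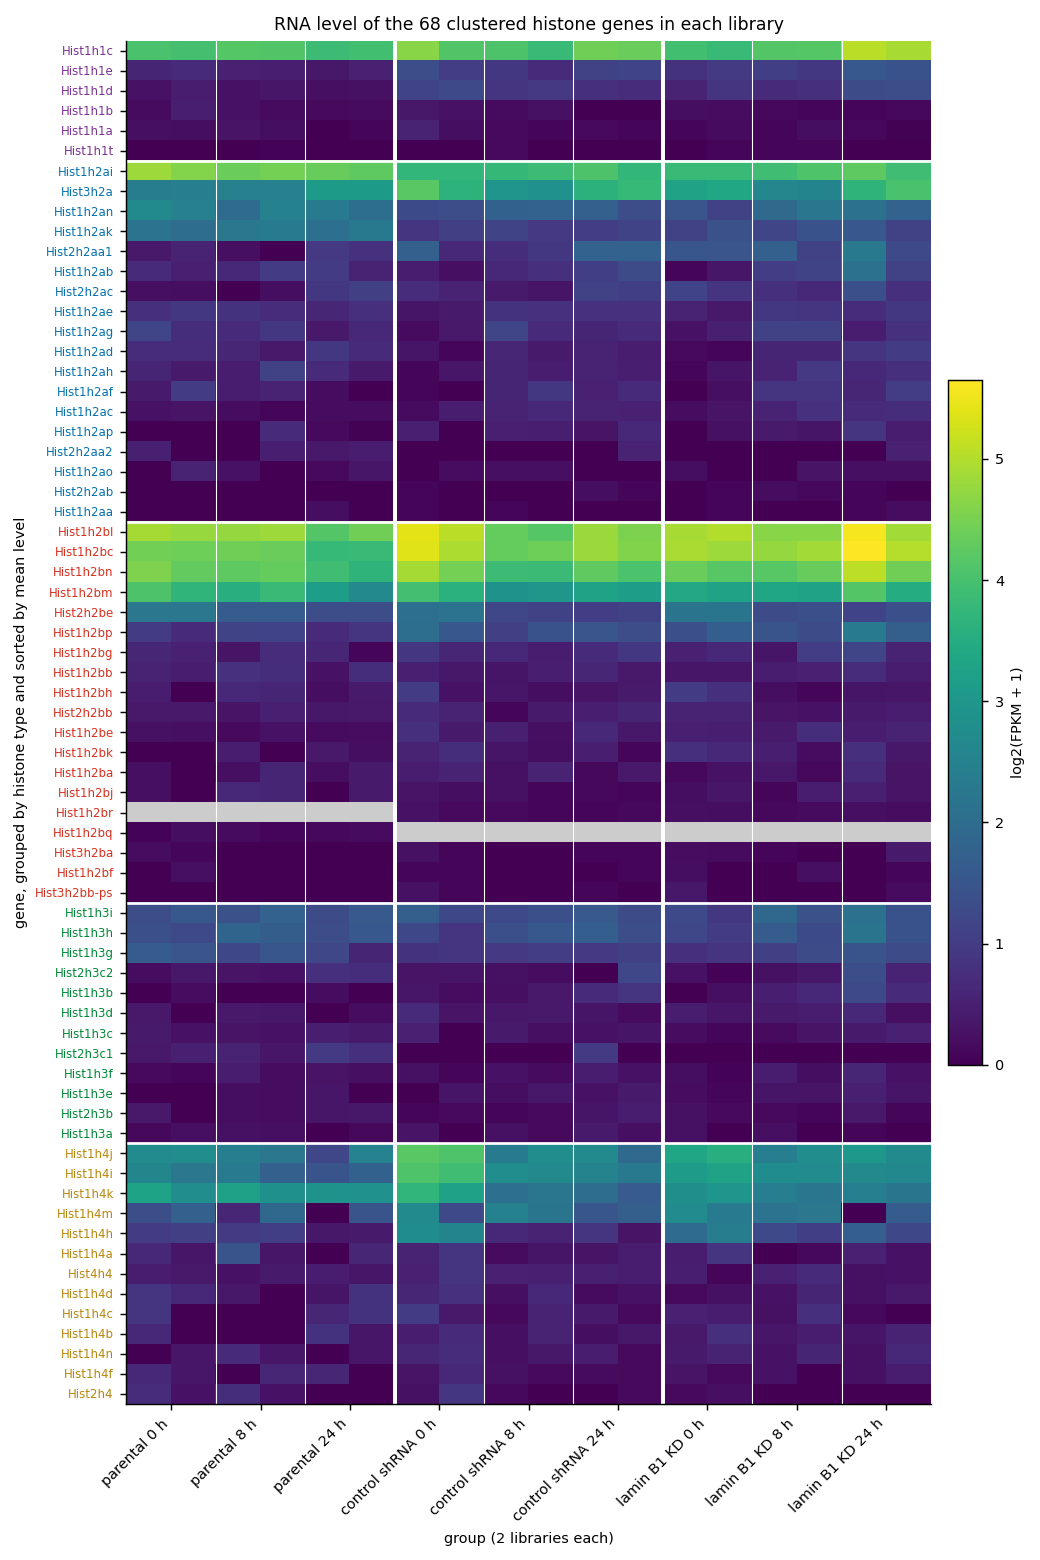
FPKM of the 68 clustered histone genes (rows, by histone type) in the 18 RNA libraries (columns, by group), coloured on a log2(FPKM + 1) scale, with grey where a gene is not in that table. A few H2B, H2A and H4 genes and Hist1h1c carried most of the signal, while 48 genes averaged under 1 FPKM.

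Near-identical copies limit what can be said of 1 gene. Of 55 members that shared a type and coding length with another, 45 had a copy over 95% identical in coding sequence, as did 10 of the 12 highest genes, and 4 pairs had identical coding sequences (Hist1h2ao and Hist1h2ap, Hist1h2bq and Hist1h2br, Hist1h4m and Hist1h4n, Hist2h2aa1 and Hist2h2aa2). The closest copies of Hist1h2bl, Hist1h2bc, Hist1h2bn and Hist1h2bm were 97.9% to 98.9% identical over 378 bases, and those of Hist1h4j and Hist1h4k, which were each other's, 98.4%. By type, 13 H2A, 12 H2B, 10 H3 and 10 H4 genes had a copy over 95% identical. How reads were shared between copies is not given in the sources used here, so the split of signal within each of these 4 types is uncertain. Hist2h2be and Hist3h2a, whose closest copies were 88.4% and 89.7% identical, had no copy over that limit.

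Few fragments appeared to lie behind the H4 values that could be read as counts. In parental cells 8 of the 13 H4 genes and 7 H2B genes were chosen because their values lay on a common step. Their values above 0 were whole multiples of that step per library, within 0.02 of a whole number (36 of 36 and 31 of 31). That agreement follows in part from the choice of genes and step, so it is not a test. Hist1h4i and Hist1h4m were not among the 8. The number of fragments was read off by taking the step as 1 fragment. The annotated transcripts of these H4 genes differ in length, from 312 (Hist1h4k) to 539 bases (Hist1h4a). Hist1h4k then had 31 and 21 fragments at 0 h, 29 and 23 at 8 h, and 25 and 24 at 24 h. Hist1h4j had 20 and 21, 15 and 14, and 5 and 18, and the 5 carries an exact 95% Poisson interval of 1.62 to 11.7, for counting error only. Hist1h2bl had 164 and 154, 143 and 162, and 106 and 124. Among the shRNA libraries 12.9% of the H4 and 28.2% of the H2B values were whole multiples, so no counts were read there.

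In parental cells the main H2B genes were lower after 24 h of TGF-β and Hist3h2a was higher. Of the 67 members in the table, 19 passed the filter for testing (at least 1 FPKM in at least 2 libraries). At 24 h, 9 of the 19 were called lower than at 0 h and 1 higher, by limma on log2(FPKM + 1) with a Benjamini-Hochberg adjusted p under 0.05, while of the 11309 genes tested 70.5% were called, 37.1% lower and 33.4% higher. The libraries at 0 and 24 h did not overlap in 13 of the 19, against 86.1% of all genes tested. The median log2 difference was -0.55 over the 19 members and -0.02 over all genes tested. By type, 5 of 6 H2B, 2 of 5 H4, 1 of 4 H2A and 1 of 3 H3 genes were lower, and 1 H2A gene was higher.

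Hist1h2bm, an H2B gene, fell most: its FPKM was 15.8 and 12.1 at 0 h, 10.8 and 13.1 at 8 h, and 7.98 and 5.29 at 24 h. Both 24 h libraries lay below all others, and the log2 difference from 0 h was -0.98 ± 0.19 (SE, 2 libraries against 2, limma adjusted p = 0.0027). Hist1h2bl held 28.5 and 26.5, then 26.2 and 27.1, then 16.6 and 20.5 FPKM, a fall by 0.55 on the log2 scale at 24 h. Hist1h2bc held 20.8 and 20.2, 20.6 and 19.6, and 12.9 and 12.9, and Hist1h2bn 22.4 and 18.8, 18.2 and 18.9, and 14.2 and 11.7. In all 4 of these H2B genes the 24 h libraries did not overlap with the earlier ones.

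Hist2h2be, an H2B gene with no stem-loop match, was already lower at 8 h. It was at 3.73 and 3.76 FPKM at 0 h, 2.13 and 2.11 at 8 h, and 1.53 and 1.52 at 24 h, and it was called at both steps (log2 differences from 0 h of -0.60 ± 0.06 and -0.91 ± 0.06). At 8 h only 3 of the 19 members were called (54.5% of all genes tested, 32.1% lower and 22.4% higher): Hist2h2be and Hist1h2ai lower, and Hist1h3h, an H3 gene, higher (1.61 and 1.39 at 0 h, 2.52 and 2.19 at 8 h). That count became 6 with quantile normalization and 5 with median-of-ratios scaling. The 8 h and 0 h libraries did not overlap in 8 members, against 78.3% of all genes. Hist1h2ai, the highest H2A gene, was at 27.4 and 23.2 at 0 h, 19.8 and 21.2 at 8 h, and 19.1 and 18.1 at 24 h.

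Hist3h2a went the other way. This H2A gene of the small Hist3 cluster was at 4.27 and 4.31 FPKM at 0 h, 4.50 and 4.55 at 8 h, and 7.41 and 7.52 at 24 h. The 24 h libraries were above all others (log2 difference 0.68 ± 0.05, limma adjusted p = 2.6e-05), and it was the only member called higher at 24 h against either earlier time. Between 8 h and 24 h, 9 members were called lower, 6 of 6 H2B genes among them, and 1 higher (51.8% of all genes tested, 24.0% lower and 27.7% higher). The libraries did not overlap in 12 of the 19, against 78.6% of all genes.

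Hist3h2a has an annotated span (chr11:58768187-58770176) inside that of Trim17, so RNA from the overlap could belong to either gene. Trim17 begins at the same base, and the ATAC peaks at its start site were those of Hist3h2a, so both genes run on the plus strand. The study describes its RNA-seq profiles as specific to strand, but counting by strand would not separate these genes. Whether the FPKM were counted in that way is not given in the sources used here.

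Other members of the 12 highest varied less or more erratically in parental cells. Hist1h1c, a linker histone gene, was at 15.2 and 14.8, 16.9 and 16.3, and 13.6 and 14.4 FPKM. Among H4 genes, Hist1h4i was at 5.03 and 3.72, 3.99 and 2.31, and 1.77 and 2.37, and was called lower at 24 h (-0.80 ± 0.21), a call lost without the 0 h library at 5.03 or the 24 h library at 1.77. Hist1h4k was at 8.64 and 5.79, 8.47 and 6.13, and 6.43 and 6.30, groups that overlapped. Hist1h4j (5.58 and 5.79, 4.38 and 3.73, 1.29 and 4.72) and Hist1h4m (1.57 and 2.34, 0.535 and 2.74, 1.22e-05 and 1.75) differed most between replicates at 24 h and were not called. Hist1h2an, an H2A gene with no stem-loop match, was at 5.38 and 4.52, 2.92 and 4.56, and 3.94 and 3.10.

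**Figure D2:**
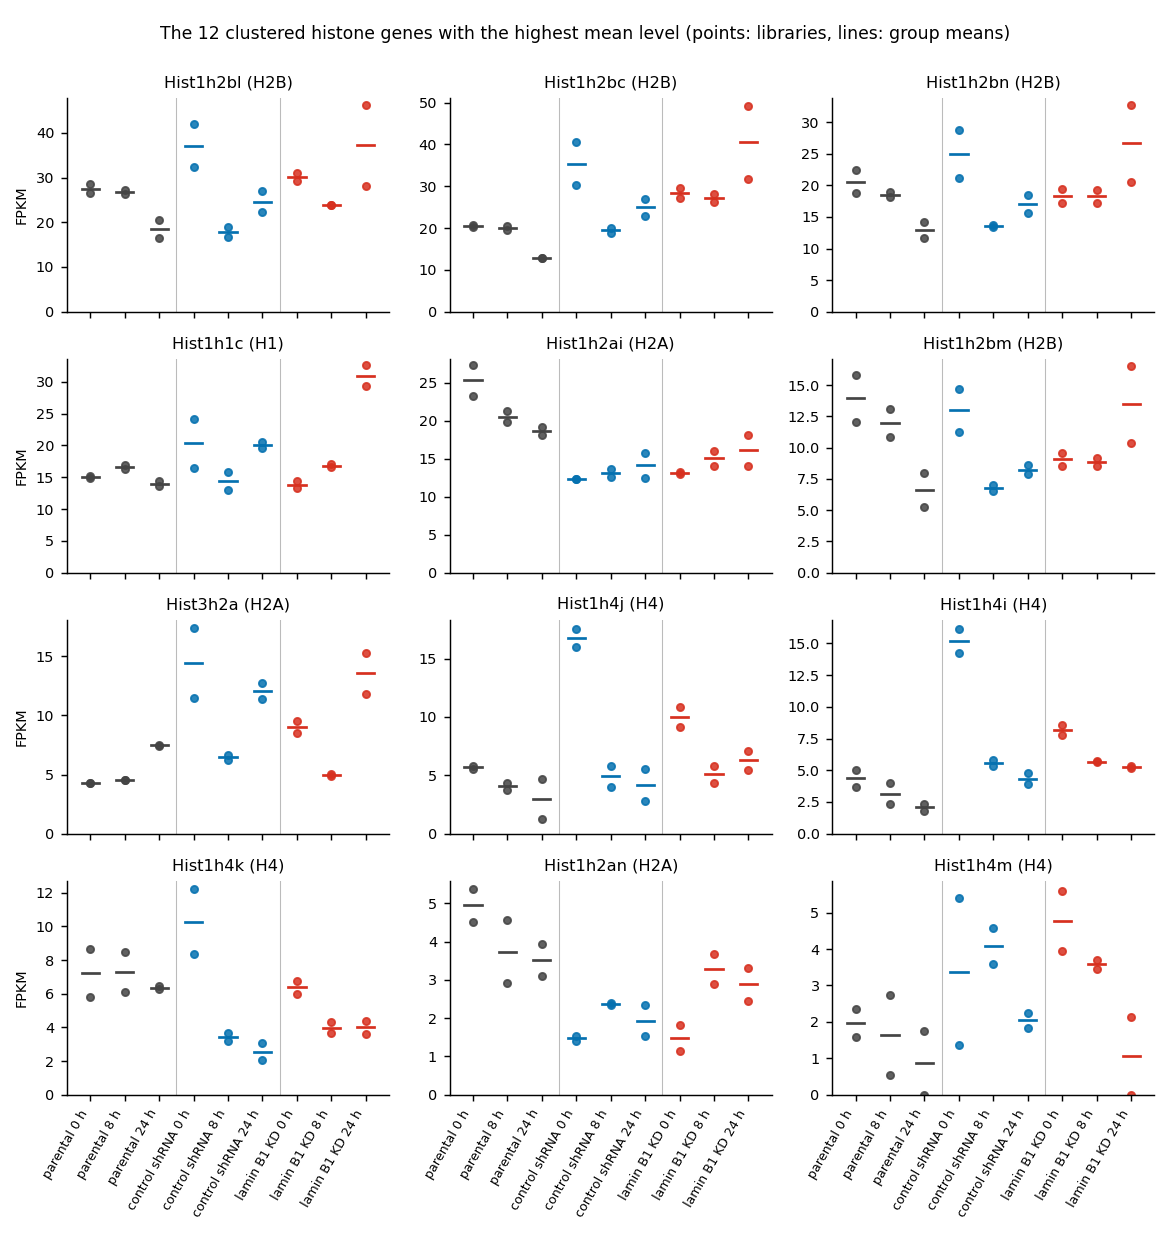
FPKM of the 12 members with the highest mean (panels), with 1 point per library, by time in TGF-β (0, 8 and 24 h) for parental, control and KD cells, and lines through the means of the 2 libraries. In control cells Hist1h4i, Hist1h4j and Hist1h4k were lower at 8 h in both libraries while Hist1h4m overlapped with 0 h, Hist3h2a lay higher at 24 h than at 8 h in all 3 kinds of cells, and Hist1h1c was highest in KD cells at 24 h.

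In control shRNA cells 4 of 5 H4 genes were lower at 8 h and at 24 h. Among the members measured in shRNA cells, 27 passed the filter. At 8 h, 13 of them were called lower and 2 higher than at 0 h (64.3% of 11450 genes tested, 44.9% lower and 19.4% higher), with a median log2 difference of -0.36 against -0.14 over all genes. At 24 h the call was lower for 9 and higher for 2 (70.7% of all genes, 45.1% lower and 25.5% higher), with a median of -0.06 against -0.13. Libraries did not overlap with 0 h in 22 members at 8 h (83.0% of all genes) and in 18 at 24 h (86.8%). At both times 4 of 5 H4 genes were lower, with medians over the 5 of -1.32 and -1.66, and 5 and then 4 of 7 H2B genes. Both contrasts use the same 0 h libraries. The summed FPKM of the 13 H4 genes was 60.7 and 50.1 at 0 h, 19.6 and 21.4 at 8 h, and 17.7 and 12.9 at 24 h.

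Hist1h4h fell most at both times, from 5.73 and 4.86 FPKM to 0.571 and 0.478 at 8 h and 0.821 and 0.230 at 24 h (log2 differences -2.04 ± 0.22 and -2.07 ± 0.22, limma adjusted p = 5e-05 and 3e-05). Hist1h4j went from 17.5 and 16.02 to 4.03 and 5.80 and then 5.54 and 2.80. Hist1h4i went from 16.1 and 14.2 to 5.80 and 5.36 and then 4.75 and 3.89, and Hist1h4k from 12.2 and 8.35 to 3.21 and 3.68 and then 3.05 and 2.06. In these 4 H4 genes no treated library reached the lower 0 h value. Hist1h4m, whose coding sequence is identical to that of Hist1h4n, was at 5.39 and 1.36, 4.58 and 3.59, and 1.84 and 2.25, and its groups overlapped.

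Most H2B genes were called lower at 8 h, and the 4 highest had larger values at 24 h than at 8 h. Hist1h2bl was at 42.0 and 32.3 FPKM at 0 h, 18.9 and 16.8 at 8 h, and 27.0 and 22.3 at 24 h. Hist1h2bc was at 40.6 and 30.3, 18.9 and 20.1, and 27.0 and 23.0, Hist1h2bn at 28.7 and 21.2, 13.7 and 13.5, and 18.5 and 15.6, and Hist1h2bm at 14.7 and 11.3, 6.51 and 6.97, and 8.57 and 7.87. Hist2h2be stayed low, at 3.18 and 3.42, 1.29 and 1.15, and 1.04 and 1.14. The step from 8 to 24 h was not tested in the shRNA cells.

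The H2A genes were mixed. Hist3h2a was at 17.4 and 11.5 at 0 h, 6.69 and 6.25 at 8 h (-1.02 ± 0.17) and 11.4 and 12.7 at 24 h. Hist1h2ai was at 12.3 and 12.3, 12.6 and 13.6, and 15.8 and 12.5. The 2 members called higher at 8 h were H2A genes of low level: Hist1h2ag, from 0.128 and 0.315 to 1.26 and 0.590, and Hist1h2an, from 1.41 and 1.54 to 2.35 and 2.40. Both calls were lost when some single libraries were left out, that of Hist1h2an without any of the 4. At 24 h they were Hist1h2ab (0.339 and 0.167 to 1.07 and 1.47) and Hist2h2ac. Hist1h2ag and Hist1h2ab were under 1 FPKM in both 0 h libraries, so they passed the filter through other groups. Among linker histones, Hist1h1c was at 24.2 and 16.4, 15.7 and 12.9, and 20.5 and 19.6, and its call at 8 h (-0.46 ± 0.15) was lost under 6 of 10 alternatives, with differences from -0.72 to -0.19.

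The 2 control libraries at 0 h differed, with a summed FPKM of all members of 269 in replicate 1 and 206 in replicate 2. The share of FPKM held by the 10 highest genes rose in the same contrasts, from 14.5% and 16.9% at 0 h to 29.5% and 32.6% at 8 h and 29.9% and 40.4% at 24 h, and its part in the result was not tested. Quantile normalization moved the median of all genes from -0.14 to -0.02 at 8 h and from -0.13 to -0.00 at 24 h, and the share of higher genes among all calls from 30.2% to 46.0% and from 36.1% to 49.99%. Under it 10 members were called lower and 2 higher at 8 h, and at 24 h 7 fell and 2 rose. Without control replicate 2 at 24 h, 6 members were called at 24 h.

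In KD cells 4 of 5 H4 genes tested were called lower at 8 h and 4 at 24 h. Of the 6 linker histone genes 3 passed the filter, and all 3 were called higher at 24 h. The H4 genes were not the same at both times: Hist1h4j was called at 8 h alone and Hist1h4m at 24 h alone. At 8 h, 6 of 27 members were called lower and 4 higher than at 0 h (67.8% of all genes tested, 44.8% lower and 23.0% higher), with a median of -0.00 against -0.13. By 24 h the call was higher for 10 and lower for 5 (71.9%, of which 28.6% higher and 43.3% lower), with a median of 0.47 against -0.10 over all genes. Libraries did not overlap with 0 h in 17 members at 8 h (89.4% of all genes) and in 21 at 24 h (84.6%). The 10 were 3 of 3 H1, 3 of 8 H2A, 3 of 4 H3 and 1 of 7 H2B genes, and the 5 lower were 4 H4 genes and Hist2h2be.

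Hist1h1c was at 14.4 and 13.3 FPKM at 0 h, 16.5 and 17.02 at 8 h, and 32.6 and 29.3 at 24 h, where both libraries lay above all 16 others (log2 difference from 0 h 1.11 ± 0.15, limma adjusted p = 0.00017). Hist1h1d, a linker histone gene of low level, went from 0.485 and 0.803 to 0.605 and 0.689 and then 1.44 and 1.52. Hist1h1e went from 0.767 and 0.959 to 1.08 and 0.897 and then 1.96 and 1.68. All 3 of these H1 genes kept their call at 24 h under each alternative run. The largest rise was that of Hist1h2ab (1.40 ± 0.28), from 0.0614 and 0.261 to 1.05 and 1.25 and then 3.39 and 1.12, where the 24 h replicates differed most. Hist1h1d, Hist1h1e and Hist1h2ab were under 1 FPKM in both KD libraries at 0 h, so they passed the filter through other groups. Their calls are thus not independent of the filter.

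Of the 5 H4 genes tested, only Hist1h4i was called lower in KD than in control cells at 0 h. Hist1h4i was at 7.75 and 8.59 FPKM at 0 h, 5.71 and 5.62 at 8 h, and 5.30 and 5.19 at 24 h, a fall by 0.55 on the log2 scale. Hist1h4h was at 2.95 and 4.24, 1.37 and 1.08, and 2.22 and 1.33, Hist1h4j at 9.17 and 10.8, 4.35 and 5.82, and 7.11 and 5.46, and Hist1h4k at 6.01 and 6.78, 4.32 and 3.64, and 4.39 and 3.60. Hist1h4m was at 5.59 and 3.94, 3.44 and 3.71, and 4.03e-05 and 2.13, and its call at 24 h (-1.69 ± 0.54) was lost without KD replicate 1 at 24 h, the library at almost 0. Hist3h2a was at 8.52 and 9.55, 5.09 and 4.87, and 11.8 and 15.3.

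The H2B genes of KD cells rested on 1 library at 24 h. Hist1h2bl was at 29.2 and 31.0 FPKM at 0 h, 24.0 and 23.9 at 8 h, and 46.3 (replicate 1) and 28.2 (replicate 2) at 24 h. Hist1h2bc was at 29.5 and 27.2, 26.2 and 28.1, and 49.3 and 31.8, Hist1h2bn at 19.4 and 17.2, 17.2 and 19.3, and 32.8 and 20.5, and Hist1h2bm at 9.61 and 8.53, 9.19 and 8.51, and 16.5 and 10.4. Replicate 1, which was higher in each of them, was also the library with less Lmnb1, and its summed FPKM of all members was 274 against 200 in replicate 2. The number of members called at 24 h against 0 h was 10 without this library, 19 without replicate 2, and 9 without KD replicate 2 at 0 h. Hist1h2ai was at 13.2 and 12.96, 14.1 and 16.04, and 18.1 and 14.1, and Hist1h2an at 1.82 and 1.15, 2.88 and 3.68, and 3.32 and 2.45.

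The share of FPKM held by the 10 highest genes was 11.4% and 12.5% in KD cells at 0 h, 31.3% and 17.9% at 8 h, and 27.8% and 38.4% at 24 h, and its part in the result was not tested. With quantile normalization the share of higher genes among all calls moved from 33.9% to 46.0% at 8 h and from 39.8% to 50.1% at 24 h. Under it 5 members rose and 5 fell at 8 h, while 14 rose and 4 fell by 24 h.

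**Figure D3:**
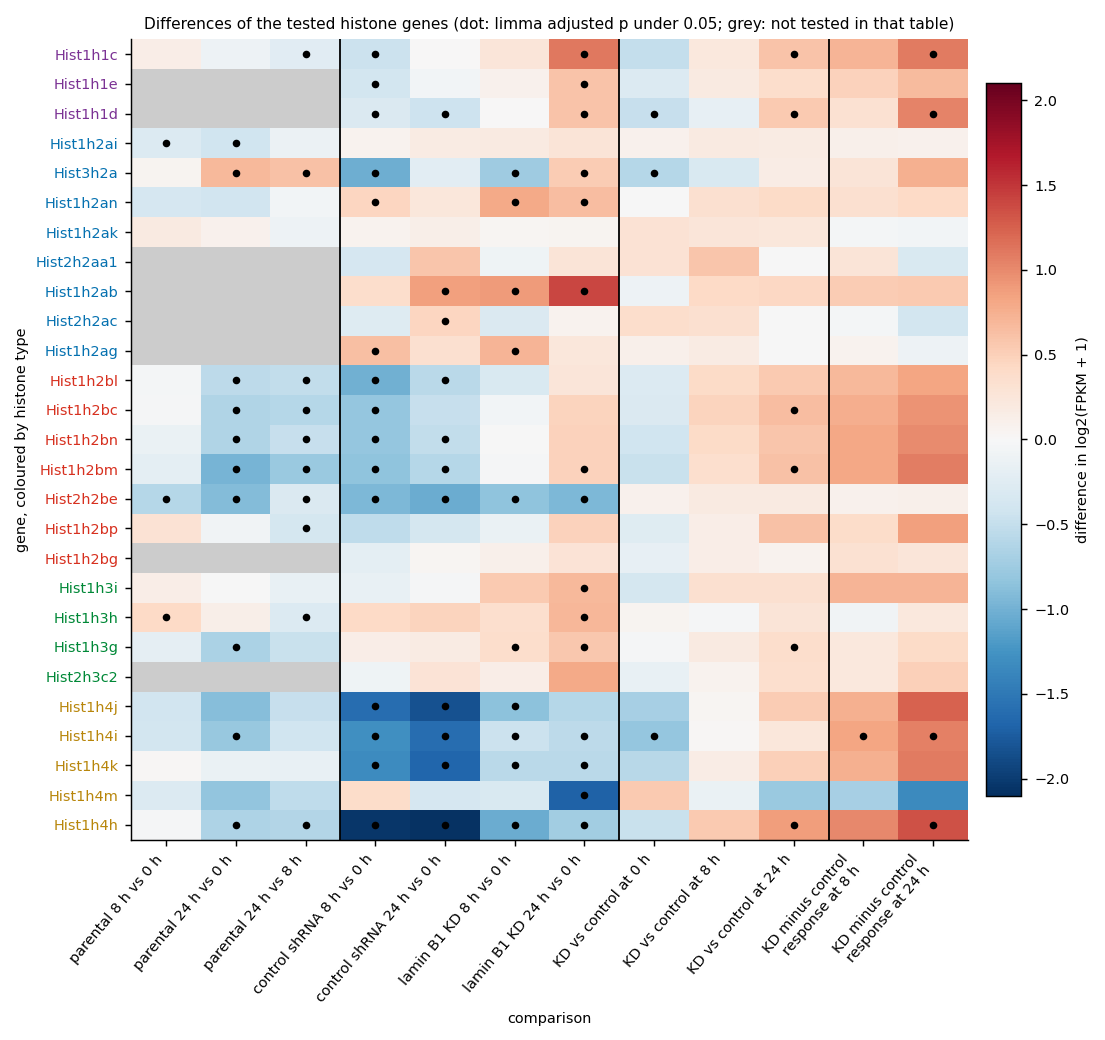
Log2 differences of the 27 members tested (rows, by type) in the 12 contrasts (columns), on the log2(FPKM + 1) scale, blue for lower and red for higher, with a dot where the limma adjusted p was under 0.05 and grey where a gene was not tested. In control cells 4 of 5 H4 genes tested were called lower at 8 and at 24 h, Hist1h4m being the exception. In KD cells at 24 h, 3 of 3 H1 genes tested were called higher, among 10 members called higher and 5 lower.

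Before TGF-β, KD and control cells differed in 3 of 27 members, all lower in KD cells (19.7% of all genes tested were called, 9.09% lower and 10.6% higher). The libraries did not overlap in 17 members, against 62.4% of all genes. Hist1h4i was at 7.75 and 8.59 FPKM in KD against 16.1 and 14.2 in control cells (log2 difference -0.82 ± 0.09, limma adjusted p = 0.00071), and it kept its call under each of 10 alternatives. Hist3h2a (8.52 and 9.55 against 17.4 and 11.5) and Hist1h1d (0.485 and 0.803 against 1.19 and 1.39) were the others, and they lost their calls under 6 and 2 alternatives. The count was 6 without control replicate 2, 1 without KD replicate 1, 2 without either of the other libraries and 5 with quantile normalization.

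At 8 h no member was called by limma (35.8% of all genes tested were, 19.3% higher and 16.5% lower), and 2, Hist1h4h and Hist1h2bc, had an unadjusted p under 0.05. The differences ran from -0.32 to 0.58 with a median of 0.19, against 0.01 over all genes, and the KD and control libraries did not overlap in 18 of 27 members (77.0% of all genes tested). When only the 4 libraries compared entered the fit, 10 members were called, 9 of them higher in KD cells. Quantile normalization called 1.

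At 24 h, 6 members were higher in KD cells and none lower (28.3% of all genes tested were called, 16.8% higher and 11.5% lower), with a median of 0.36 against 0.02. The libraries did not overlap in 14 members, against 63.8% of all genes. They were Hist1h4h (2.22 and 1.33 FPKM against 0.821 and 0.230, log2 difference 0.87 ± 0.22, limma adjusted p = 0.019), Hist1h2bc, Hist1h2bm, Hist1h1c (32.6 and 29.3 against 20.5 and 19.6, 0.60 ± 0.15), Hist1h1d (1.44 and 1.52 against 0.728 and 0.651, 0.56 ± 0.10) and Hist1h3g. Of these Hist1h1d kept its call under all 10 alternatives, while Hist1h2bc and Hist1h2bm lost theirs without KD replicate 1. The number called was 2 without either KD replicate 1 or control replicate 2, 3 without control replicate 1 and 11 without KD replicate 2, and 2 when only these 4 libraries entered the fit.

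Whether KD cells responded differently from control cells was tested as an interaction. At 8 h it passed for Hist1h4i alone (4.06% of all genes tested, 2.45% higher and 1.61% lower), which fell less in KD than in control cells by 0.84 ± 0.13 on the log2 scale (limma adjusted p = 0.018). At 24 h it passed for 4 of 27 members (4.72% of all genes, 2.73% higher and 1.98% lower), all with a higher response in KD cells: Hist1h4i (1.05 ± 0.13, limma adjusted p = 0.0049), Hist1h1d (1.04 ± 0.13, limma adjusted p = 0.0062), Hist1h1c (1.10 ± 0.22, limma adjusted p = 0.032) and Hist1h4h (1.34 ± 0.31, limma adjusted p = 0.047). The median over the 27 members was 0.66, against 0.03 over all genes. Hist1h4i and Hist1h1d kept the 24 h call under all 14 alternatives, while Hist1h1c lost it under 6 and Hist1h4h under 11. Hist1h1d reached the 1 FPKM of the filter in control cells at 0 h and KD cells at 24 h, groups that both raise this difference. The 24 h count was 10 without control replicate 2 at 0 h or without KD replicate 2 at 24 h, 8 without KD replicate 1 at 24 h, and 2 without any single KD library at 0 h or control library at 24 h. The 8 h count was 4 without control replicate 2 at 0 h and 0 without any 1 of the KD libraries or the 8 h libraries. These results share their 0 h libraries with the contrasts within each kind of cell. The differences for all 4 genes also contain a gap at 0 h, where both control libraries were higher than both KD libraries. That gap was called for Hist1h4i (-0.82) and Hist1h1d (-0.48), and not for Hist1h1c and Hist1h4h. At 24 h itself, KD exceeded control by 0.56 for Hist1h1d, 0.60 for Hist1h1c and 0.87 for Hist1h4h, and Hist1h4i was not called.

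Other genes of histone supply moved in their own way. S-phase genes, 24 genes that copy DNA or make its precursors, were all called lower after TGF-β at 8 and 24 h in parental, control and KD cells, with medians from -0.76 to -1.74. Pcna, the sliding clamp of DNA polymerase, went from 339 and 352 FPKM in parental cells at 0 h to 139 and 150 at 24 h, and from 299 and 310 to 89.8 and 103 in KD cells. In KD against control cells 22 of the 24 were lower at 8 h (16.5% of all genes tested) and 19 at 24 h (11.5%), times at which no histone member was called lower. Slbp, counted both here and among the factors that process histone mRNA, was at 51.0 and 52.0 FPKM in parental cells at 0 h, 27.9 and 28.5 at 8 h, and 24.1 and 25.6 at 24 h. In KD cells it was at 52.1 and 53.5, 19.7 and 20.5, and 17.15 and 18.03.

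Of the 12 processing factors tested, 8 were lower and 1 higher in parental cells at 24 h, 9 and 0 in control cells, and 10 and 1 in KD cells, beside 37.1%, 45.1% and 43.3% of all genes tested that were lower, and the gene called higher was Sympk, a scaffold of the cleavage complex. Of 14 histone chaperones, 9, 12 and 11 were lower and 0, 0 and 1 higher, among them Ssrp1 (-0.50, -0.69 and -0.71 on the log2 scale). Of 11 replication-independent variants, 8 were lower in each kind of cell at 24 h, and 1, 2 and 2 were higher. H2afz, the most abundant of them, which replaces H2A, was at 962 and 1045 FPKM in parental cells at 0 h and at 415 and 453 at 24 h, while H3f3a, which supplies H3.3 outside S phase, was at 441 and 453 and then 434 and 453.

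RNAs without a poly(A) tail varied widely between replicates, and only 4 of 11 such genes passed the filter. Of the 4, 1, Snora65 in KD cells at 24 h, was called in any contrast against 0 h. Snord22 was listed at 0 in one parental 0 h library and at 42.2 in the other. The list left out Snord47 and Snord58b, small nucleolar RNAs with far larger values. Snord47 ran from 15167 FPKM (KD replicate 1 at 0 h) to 238432 (KD replicate 2 at 24 h). Snord58b ran from 0 to 73595.5 (control replicate 1 at 8 h). Their part in the share of FPKM held by the 10 highest genes was not tested. The summed FPKM of the list was 6.95 and 89.8 in parental cells at 0 h, while the sum of the histone members there was 167 and 190. At 8 h it was 25.6 and 190 against 168 and 164 for the members, and at 24 h 59.6 and 174 against 134 and 129, so the order of the libraries was the same at 0 h and opposite at 8 and 24 h.

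The members lie in 5 clusters on mm9, when genes within 250 kb of each other are joined. On chromosome 13 there are 23 between 21807632 and 22135545 and 31 between 23622919 and 24026720, on chromosome 3 there are 10 between 96023839 and 96082924, on chromosome 11 there are 3 between 58762413 and 58770176, and Hist4h4 stands alone on chromosome 6 at 136752589 to 136752900. These spans hold or overlap 11 other genes, among them Hfe, 4 Slc17a genes and Zfp184. In 14 places neighbouring members start back to back within 1000 bases, 13 of them an H2A and an H2B gene 167 to 305 bases apart.

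Lamin B1 peaks were scarce at the histone genes. Counting a peak that overlapped a gene by at least 1 base from 2500 bases upstream to its 3′ end, 0 of 68 members had one at 0 h (19.7% of all 21213 genes placed on mm9), which allows up to 5.35% by the upper Wilson 95% limit. At 8 h 4 had one (5.88%, interval 2.31 to 14.2%, against 38.6%) and at 24 h 3 (4.41%, 1.51 to 12.2%, against 29.2%). The intervals cover counting error only, and since members share peaks they are not independent. The treatment of reads from near-identical copies was not examined, so a missing peak at such genes need not mean that lamin B1 was absent. Histone genes are short, so the same count was made within 500 bases of the start site, where gene length plays no part: 0, 3 and 2 members against 15.3%, 30.2% and 23.7% of all genes. Members at 1 FPKM or above in parental cells had a lamin B1 peak in 0, 1 and 1 of 17 cases, against 34.0%, 56.8% and 44.4% of all genes at that level.

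Of these lamin B1 peaks, 2 were seen at both treated times. A peak at chr13:23713863-23714950 at 8 h (MACS score 88.35, where the lowest in any list is 50) and chr13:23714107-23714960 at 24 h (69.96) covered the start of Hist1h1e and fell within the upstream window of Hist1h2be. A peak at chr13:23830320-23831238 at 8 h (74.09) and chr13:23830367-23831100 at 24 h (60.82) lay over the start of Hist1h1c, the linker histone gene that was highest in KD cells at 24 h. The third, at chr6:136752395-136753194 (128.81), covered Hist4h4 at 8 h only. None of the 24 h peaks at members reached the median score of its list, 83.25, and both H1 peaks had no counterpart at 0 h. Among the members whose response at 24 h differed between KD and control cells, Hist1h1c alone carried a lamin B1 peak. Hist1h4i, Hist1h1d and Hist1h4h lacked such a peak in every list. Hist1h1e, which carried a peak, was not called in KD against control cells, and the RNA of Hist1h2be and Hist4h4 did not pass the filter. Whether these peaks bear on the RNA differences was not tested.

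Some non-histone genes in or overlapping the clusters had lamin B1 peaks too. Pom121l2 had one at 8 h (71.1) and 24 h (92.65), Prss16 at 24 h (62.18) and Trim17 at 8 h (62.08), and the 8 others had none. The peak of Trim17 lay outside its cluster, which held no lamin B1 peak at any time. That gene runs on to chr11:58786600, past the cluster. From a member's start site the nearest lamin B1 peak lay at a median distance of 861 kb at 0 h, 56.8 kb at 8 h and 78.5 kb at 24 h, against 121, 28.1 and 52.4 kb over all genes. The lists held 4645, 10484 and 7083 peaks, with no reads from which depth could be judged.

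Accessible start sites were common at these genes, and most so at 24 h. Within 500 bases of the start site an ATAC peak was present at 23 of 68 members at 0 h (33.8%, interval 23.7 to 45.7%, against 30.4% of all genes), 27 at 8 h (39.7%, 28.9 to 51.6%, against 24.8%) and 53 at 24 h (77.9%, 66.7 to 86.2%, against 46.7%). These were 15, 17 and 31 separate peaks, since neighbours share them. The 24 h list was also the longest, with 33811 peaks against 9782 and 10340. With an equal number of top scoring peaks taken from each list, 32.4% of members had a peak at 24 h, against 28.1% of all genes, so the 24 h count moved with the length of the list, and depth cannot be told apart from accessibility. Over the 3 lists, 17 members had a peak at every time, 20 at 24 h alone, 10 at 8 and 24 h, 6 at 0 and 24 h, and 15 at none. Among those with none were Hist1h2ao, Hist1h2ap, Hist1h2bq, Hist1h2br, Hist1h4n and Hist2h2aa2, which each have a copy of identical coding sequence. The treatment of reads from such copies was not examined, so a missing peak there need not mean closed DNA.

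ATAC peaks were also counted by RNA level. Of the 50 members under 1 FPKM in parental cells, 19, 20 and 38 had an ATAC peak at 0, 8 and 24 h (38.0%, 40.0% and 76.0%), whereas 4.56%, 3.74% and 10.0% of the 10634 genes at that level did. Of the 17 at 1 FPKM or above, 4, 7 and 15 had one (23.5%, 41.2% and 88.2%), against 57.4%, 46.9% and 85.1% of the 10360 genes at that level. Peaks shared by neighbouring members count once for each.

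**Figure D4:**
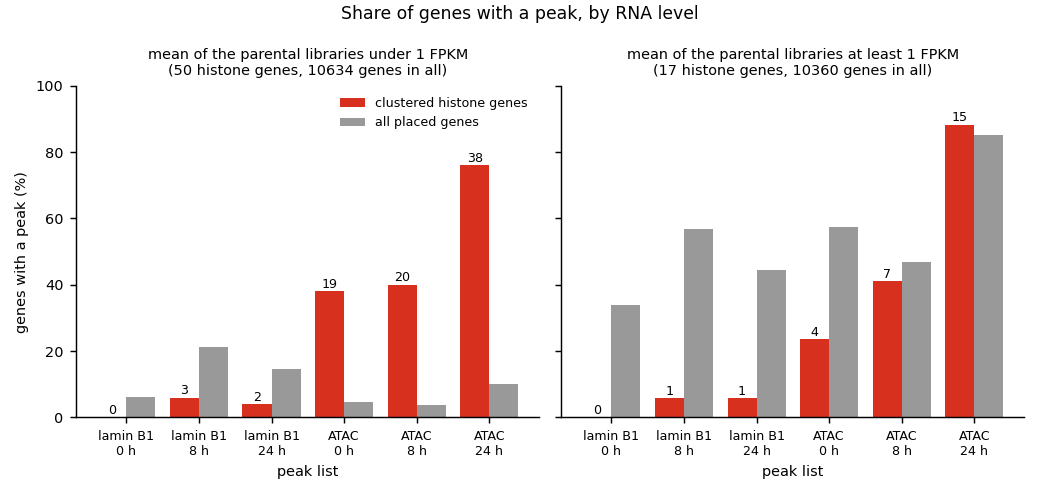
Percentage of genes with a lamin B1 or an ATAC peak at 0, 8 and 24 h, for members and all placed genes, split by mean parental FPKM under 1 or at least 1. Members under 1 FPKM had an ATAC peak in 38.0%, 40.0% and 76.0% of cases against 4.56%, 3.74% and 10.0% of all genes, and lamin B1 bars of members stayed at or below 6.0%.

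The highest ATAC score at a member was 509.66 at 24 h, at chr13:23634479-23636909, shared by Hist1h2bh and Hist1h3f. Peaks at members had a median score of 76.1, 64.5 and 233 at the 3 times, against 93.1, 73.9 and 155 over the lists, and a median width of 853, 683 and 2140 bases against 958, 758 and 1068. At 0 and 8 h most were thus below the middle of their list, and at 24 h they were above it and wider. By type, 5 of 6 H1, 13 of 18 H2A, 15 of 19 H2B, 10 of 12 H3 and 10 of 13 H4 genes had one at 24 h. Of the 14 back-to-back pairs, 6, 8 and 11 shared 1 ATAC peak at the 3 times.

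Among the 12 highest genes, Hist1h2bc, Hist3h2a and Hist1h2an had an ATAC peak at every time. Hist1h1c had one at 0 h (76.08) and 24 h (404.82), and both Hist1h2bl and Hist1h2ai, which start back to back, only at 24 h (260.05). Hist1h2bm (348.59) and Hist1h4i (235.16) also had theirs at 24 h alone, and Hist1h4k had none at any time. The peak at Hist1h4i was shared with Hist1h2ag and Hist1h2bj.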

How the data were processed

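RNA was measured in 18 libraries of NMuMG cells, 2 per group, and lamin B1 ChIP-seq and ATAC-seq in 1 library at each time. Per gene, the authors deposited FPKM, and the submitters' processing notes name Bowtie, TopHat, Cufflinks and mm9 without versions. The tables have no header, so columns were assigned from the table titles quoted in the sample descriptions. The title for the shRNA cells names each library. That for the parental cells names only the time points, so 2 columns per time were taken in that order. The authors also deposited peak lists with a MACS score per peak, and the lowest score is 50. No depth is given. The study's methods call the 2 RNA libraries of a group biological replicates.

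Genes at 1 FPKM or more in at least 2 libraries were tested with limma 3.58.1 (R 4.3.3) on log2(FPKM + 1), all libraries of a table in 1 fit, with Benjamini-Hochberg adjustment over all genes tested and a threshold of 0.05. Fold changes on this scale understate changes of low genes. Genes were named by a rule: the 12 members with the highest mean FPKM, the called member with the largest rise and fall in each contrast, and up to 3 of each other list by mean FPKM. Other called members and members with peaks were named after their values were seen. The scripts were tested on simulated data. Positions came from the GENCODE M1 annotation of mm9, promoters came from RefSeq, and shares carry Wilson 95% intervals. Alternatives were a pseudocount of 0.1, no filter, quantile and median-of-ratios scaling, only the groups compared, a replicate block, left-out libraries and other peak thresholds. The members and lists were chosen with earlier results of these data known. Hi-C was left out as not analysed here.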

Additional observations from a re-analysis of the deposited data

Results flagged for a closer look

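The response to TGF-β differed between KD and control cells for 1 member at 8 h and 4 at 24 h, by the limma interaction test. At 8 h the difference, KD minus control, was 0.8357 on the log2 scale for Hist1h4i. At 24 h it was 1.0520 for Hist1h4i, 1.0398 for Hist1h1d, 1.0973 for Hist1h1c and 1.3368 for Hist1h4h. Each of these differences contains a gap at 0 h, where both control libraries were higher than both KD libraries. The calls of Hist1h4i and Hist1h1d at 24 h held under all 14 alternatives, while the 8 h call of Hist1h4i was lost under 6, and the 24 h calls of Hist1h1c and Hist1h4h under 6 and 11.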

How the results depend on the processing

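Of the counts and shares recomputed, 111 stayed within 1.5 times or 1 interval of the reported value and 38 moved. Of the values of single genes, 1657 kept their direction and side of the threshold, 67 passed it only under an alternative, 155 no longer passed it and none reversed. Quantile normalization called 6 members in parental cells at 8 h, 5 in KD against control cells at 0 h and 1 at 8 h, and median-of-ratios scaling called 5 in parental cells at 8 h. With no filter 16 were called in parental cells at 24 h and 17 in KD cells at 8 h. With only the groups compared in the fit, KD against control gave 10 at 8 h and 2 at 24 h, and the difference in response 3 at 8 h and 2 at 24 h. Leaving out 1 library gave 2 to 4, 8 to 11 and 8 to 10 calls in the parental contrasts (8 h and 24 h against 0 h, 24 h against 8 h), 10 to 14 and 6 to 11 in control cells at 8 and 24 h, 7 to 8 and 9 to 19 in KD cells, 1 to 6, 0 to 0 and 2 to 11 in KD against control at 0, 8 and 24 h, and 0 to 4 and 2 to 10 in the difference in response at 8 and 24 h. With peaks at or above their list's median score, 0.0% of members had a lamin B1 peak at 24 h, and 14.7%, 10.3% and 58.8% an ATAC peak at 0, 8 and 24 h. For histone genes with ATAC peak at 24 h the share was 32.4% with an equal number of top peaks and 88.2% within 2500 bases of the start. The fewer peaks or samples are part of these settings, and otherwise the cause was not tested.

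Replicate numbers of the shRNA libraries gave little sign of pairing, since only 2 of 15 pairs of groups had correlated deviations over 0.1 (-0.135 to 0.368). This check cannot exclude a pairing with a weak effect. With the replicate block 15, 13, 11 and 17 members were called in control and KD cells at 8 and 24 h, 4, 0 and 9 in KD against control at 0, 8 and 24 h, and 1 and 4 in the difference in response. For the parental contrasts alone, no paired analysis was possible because their columns carry no replicate number. Depth is unknown for the peak lists and the shRNA libraries.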
